A study of Mus musculus with 6 samples.

Results

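Messenger RNAs of cholesterol synthesis were followed in lungs of C57 mice with ovalbumin (OVA) induced airway allergy. The rule named 8 genes: the enzymes Hmgcs1, Idi1, Fdps, Fdft1, Sqle, Cyp51 and Dhcr7 and the sterol sensor Insig1. Of these, 6 have a probe row in the table used here, and 4 of them, Fdps, Sqle, Cyp51 and Dhcr7, had values, on all 6 arrays. Idi1 and Fdft1 have a probe without a value on any array, and Hmgcs1 and Insig1 have no probe row here, so these 4 genes were not analysed. The 4 measured genes stand among 9774 genes tested. The measured members are all enzymes of synthesis, and none acts in uptake.

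The series has 6 two-colour arrays and 1 group of animals: C57 mice sensitized to and challenged with ovalbumin, 1 mouse per array. The other channel of every array held the same pool, made from lungs of control C57 mice. Both RNAs had been amplified. The labels name neither the age and sex of the animals nor the treatment and number of the pooled controls. The pool is 1 control sample, so no test here includes the spread between control mice. The 6 values of a gene are separate mice, but they share that pool.

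No label states which channel is the numerator of the deposited ratio, or the dyes. Titles name the OVA mouse first, while genes known to be induced in allergic airways lay on the negative side: the mucus regulator Clca1 had a mean log2 ratio of -3.06 and the airway mucin Muc5ac one of -2.63, and both were negative in 5 of 6 mice. Ratios therefore keep the sign of the deposited table, a size is a fold apart from the pool, and no side is assigned to the OVA mice. The values were read as base 2 logarithms, and a natural logarithm would make every fold larger. The array of mouse 3 stood apart, with an SD over probes of 0.21 against 0.32 to 0.47 on the others, and with Clca1 at 0.842 and Muc5ac at 0.224. Members are given with and without it, and so are other named genes whose call or side it changes. The arrays measured between 10922 and 13132 probes, and their number limits the precision.

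Cells make cholesterol from acetyl-CoA through mevalonate, isoprenoid diphosphates, squalene and lanosterol, nearly all of it at the endoplasmic reticulum. When sterols run low there, the escort protein Scap carries the SREBP transcription factors to the Golgi for cleavage, and the released factors switch on genes of synthesis and uptake; Insig proteins hold this complex back when sterols are plentiful. SREBP-2, the product of Srebf2, drives mainly sterol genes, and SREBP-1, the product of Srebf1, mainly fatty acid genes. In the lung, alveolar type 2 cells secrete surfactant that contains cholesterol, and alveolar macrophages take up and export it.

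SREBPs bind sterol response elements, usually close to boxes for NF-Y and Sp1, and the promoters of the 2 members that passed the test below are shown for these letters. RefSeq windows (GRCm38.p6) matched 5 of the 8 genes, among them Cyp51 and Dhcr7 but not Fdps and Sqle. The printed stretch is the 250 bases before the annotated start, on the gene's strand, with capitals for CCAAT (NF-Y) and GGGCGG (Sp1) on either strand. Cyp51 lies on chromosome 5 and has 1 window, chr5:4104698-4104947, minus strand. Dhcr7 lies on chromosome 7 and has 3 annotated starts; the window shown is that of the third, chr7:143829964-143830213, plus strand, the only one of them with a CCAAT.
Cyp51: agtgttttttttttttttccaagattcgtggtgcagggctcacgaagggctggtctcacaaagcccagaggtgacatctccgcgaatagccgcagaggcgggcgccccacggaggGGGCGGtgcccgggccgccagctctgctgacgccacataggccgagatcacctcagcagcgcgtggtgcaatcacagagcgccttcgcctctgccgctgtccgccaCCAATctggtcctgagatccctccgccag
Dhcr7: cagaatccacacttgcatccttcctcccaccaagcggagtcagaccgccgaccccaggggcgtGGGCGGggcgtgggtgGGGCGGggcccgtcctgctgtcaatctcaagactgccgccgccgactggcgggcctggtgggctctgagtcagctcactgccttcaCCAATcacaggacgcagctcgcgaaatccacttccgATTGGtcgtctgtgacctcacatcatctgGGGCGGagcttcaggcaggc
The Cyp51 window holds 1 CCAAT, 29 bases before the start, and 1 GGGCGG, 135 bases before it. The Dhcr7 window holds 2 CCAAT, at 85 and 49 bases, and 3 GGGCGG, at 187, 171 and 20 bases, and no matches overlapped. The first Dhcr7 start has 1 GGGCGG and the second has neither. The core TCACNCCAC of the sterol response element, searched on both strands, is in none of these windows; among the 5 matched genes only Hmgcs1 has it, 137 bases before its start. It occurs in 1.05% of the 32851 windows of this length, against 33.8% for CCAAT and 32.7% for GGGCGG. All 5 matched genes have at least 1 window with CCAAT and 1 with GGGCGG. Of the 43 other sterol and fatty acid genes with a window, 28 have CCAAT, 30 have GGGCGG and 1 has the core. A match is a run of letters and not a shown binding site. Only this exact form of the core was searched, so a window without it is not shown to lack a sterol response element.

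Cyp51 and Dhcr7, the members that act after squalene has been closed into rings, lay on the negative side by about the same amount, 1.30-fold and 1.33-fold apart from the pool. The 2 earlier enzymes, Fdps and Sqle, were 1.03-fold and 1.08-fold apart and did not pass. Thus 2 of 4 measured members passed an adjusted p of 0.05 (limma, Benjamini-Hochberg over all probes), both negative, where 24.4% of all 11629 probes passed on either side and 12.3% on the negative side. With 4 genes this count is a description. Their median mean log2 ratio was -0.25, against -0.0033 over all probes tested. In bulk lung RNA, a different number of cells of a type and a different amount of RNA per cell cannot be told apart, whichever channel is higher.

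Fdps, farnesyl diphosphate synthase, joins isoprenoid units into the precursor of squalene and of protein prenyl groups. Its log2 ratios in mice 1 to 6 were -0.295, -0.087, 0.105, -0.202, 0.382 and -0.166. Mice 3 and 5 lay above 0 and the others below it, so the mice were spread across both sides of the pool. The mean was -0.04 ± 0.25 (SD, n = 6), with a 95% interval of the fit from -0.25 to 0.16 and an adjusted p of 0.751 (limma). Without mouse 3 it was -0.072 (limma, adjusted p = 0.629). The interval reaches 1.19-fold on the negative side. Mouse 5 was the highest value of any member in any mouse, and 94.0% of its probes had a lower ratio.

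Sqle, squalene epoxidase, adds the oxygen that makes squalene ready for ring closure and is a rate-limiting step beside HMG-CoA reductase. Its log2 ratios in mice 1 to 6 were -0.063, -0.115, 0.121, -0.276, -0.116 and -0.249. All mice but mouse 3 were negative, and mice 4 and 6 were lowest. The mean was -0.12 ± 0.14 (SD, n = 6), with an interval from -0.25 to 0.016 (limma, adjusted p = 0.172). Without mouse 3 it was -0.16 and also did not pass (limma, adjusted p = 0.0532). The Sqle spot lies 6 probe numbers from that of Serpina3n, at -1.34, and 18 from that of Col1a1, at -1.45, while Slc25a1, 6 numbers away on the other side, was at 0.91. Mean ratios of probes 6, 18 and 24 numbers apart correlated at 0.13, 0.10 and 0.11 across probes, which are not independent replicates, while every other distance up to 30 gave between -0.023 and 0.046; the part of these spots in the value of Sqle was not tested.

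Cyp51, lanosterol demethylase, removes a methyl group from the first ring-closed sterol and is a cytochrome P450 of sterol synthesis. Its log2 ratios in mice 1 to 6 were -0.381, -0.467, 0.003, -0.588, -0.283 and -0.560. All mice but mouse 3 lay well below 0, and mouse 3 was at the level of the pool. The mean was -0.38 ± 0.22 (SD, n = 6; interval -0.56 to -0.19), 1.30-fold apart (limma, adjusted p = 0.0157). It was -0.45 without mouse 3 (adjusted p = 0.00337). The call was lost without mouse 2 (-0.36, adjusted p = 0.0531) or mouse 4 (-0.34, adjusted p = 0.0518), and an exact sign-flip permutation test, two-sided, gave p = 0.0625, with 5 of 6 mice negative.

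Dhcr7, the reductase of the last step to cholesterol, whose substrate is also the precursor of vitamin D, was the most even of the set. Its log2 ratios in mice 1 to 6 were -0.322, -0.343, -0.390, -0.555, -0.326 and -0.521. Every mouse was negative, mice 4 and 6 most so, and mouse 3 lay among the others. All 6 ratios share the pool, and the dyes are not stated. A shift common to all arrays therefore cannot be told apart from one of the pool or dye. The mean was -0.41 ± 0.10 (SD, n = 6; interval -0.52 to -0.30), 1.33-fold apart (limma, adjusted p = 0.0035), and the exact sign-flip permutation p was 0.03125, the smallest that 6 mice allow. Without mouse 3 the mean was also -0.41 (limma, adjusted p = 0.0037). Of the probes measured on 6 arrays, 14.3% were negative in all mice. The SD of 0.10 compares with a median of 0.16 over those probes, and 25.2% of them had a smaller one. By unadjusted p it ranked 104 among the 11629 probes, although its size was far under 2-fold. It also passed at an adjusted p of 0.01 in limma, as 6.41% of all probes did.

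**Figure D1:**
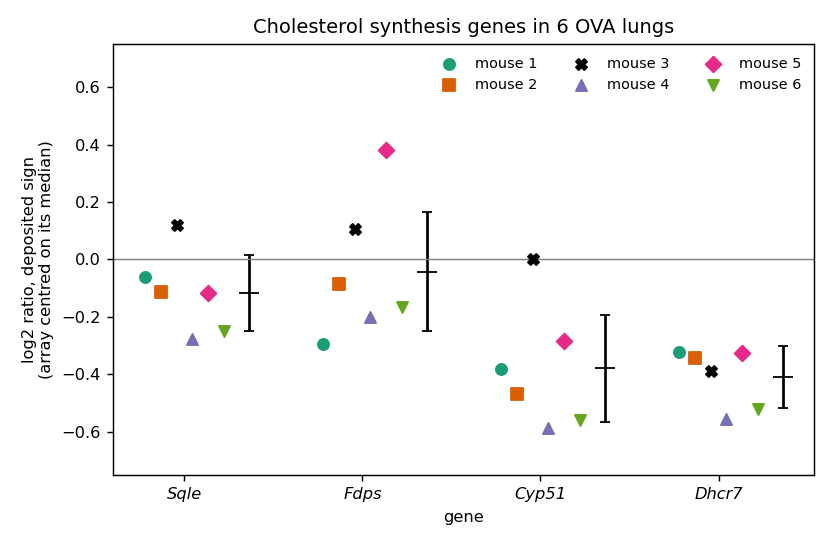
Log2 ratio (deposited sign, y axis) of the 4 measured cholesterol synthesis genes (x axis) in 6 OVA mice, 1 symbol per mouse; the bar is the mean with its 95% interval from the limma fit. All 6 mice lie between -0.555 and -0.322 for Dhcr7, while mouse 3 (black cross) lies at 0.003 for Cyp51 and above 0 for Sqle and Fdps.

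Mouse 3 separates the members from one another. Dhcr7 was at -0.390 there, and only 4.0% of the probes of that array had a lower ratio. Cyp51 was in the middle of the same array, with 50.6% of probes lower, and Sqle and Fdps had 78.4% and 75.6% lower. In mouse 4 Cyp51 and Dhcr7 lay close together, with 4.6% and 5.1% of probes lower. The mean of the 4 genes was lowest in mice 4 and 6, at -0.41 and -0.37, followed by mice 1 and 2 at -0.27 and -0.25, and it was highest in mice 5 and 3, at -0.086 and -0.040. All 4 genes were negative in mice 1, 2, 4 and 6, 3 of them in mouse 5 and 1 in mouse 3.

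The members were also set against each other within each mouse, in 6 pairs, a comparison chosen after their values were seen. Cyp51 was lower than Sqle in 6 of 6 mice, by a mean of 0.26 ± 0.10 on the log2 scale (SD, n = 6), and lower than Fdps in 6 of 6, by 0.34 ± 0.22. Dhcr7 was likewise lower than Sqle by 0.29 ± 0.11 and lower than Fdps by 0.37 ± 0.23, again in every mouse. Each of these 4 differences had an exact sign-flip permutation p of 0.03125 (two-sided, adjusted over the pairs p = 0.0469). A p of 0.03125 is the smallest that 6 mice allow, and the pairs reuse the same genes and the same pool. Because the values had been seen, these p-values describe the pairs and are no independent support. Cyp51 and Dhcr7 differed by a mean of 0.03 ± 0.19, ranging from -0.124 to 0.393 (exact permutation p = 0.906), and Sqle and Fdps by -0.07 ± 0.24 (exact permutation p = 0.562, adjusted p = 0.675). These ratios compare shifts from the pool and not levels of different transcripts.

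The other synthesis enzymes did not share 1 side. Of 15 further genes of the pathway, 12 had a probe and 10 could be tested; 1 passed as negative and 2 as positive, where 12.3% and 12.0% of all probes did. Hsd17b7, a ketosteroid reductase of the demethylation steps between Cyp51 and Dhcr7, averaged -0.31 ± 0.19 on the log2 scale (SD, n = 6; limma, adjusted p = 0.0213), with -0.358, -0.183, -0.452, -0.486, 0.020 and -0.410 in mice 1 to 6. Mouse 5 was its only value above 0, and the call was lost without mouse 4 (adjusted p = 0.0662) or mouse 6 (adjusted p = 0.0596).

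Sc5d, a desaturase acting just before Dhcr7, lay on the opposite side at 0.23 ± 0.14 (limma, adjusted p = 0.0279). It was positive in 6 of 6 mice, from 0.052 in mouse 1 to 0.429 in mouse 6, but passed in only 2 of the 6 fits that leave out a mouse. Consecutive enzymes at the end of the route were thus on both sides of the pool. Ggps1, which turns farnesyl into geranylgeranyl diphosphate and so branches away from sterols at the product of Fdps, was at 0.32 ± 0.16 (limma, adjusted p = 0.0134) and positive in every mouse. Nsdhl, the sterol dehydrogenase that works with Hsd17b7, had a mean of 0.26 and was positive in 5 of 6 mice, without passing (limma, adjusted p = 0.054). Ebp, a sterol isomerase, had 0.11, the lamin receptor and sterol reductase Lbr -0.14 on 4 arrays, the mevalonate kinase Mvk 0.042 and the mevalonate diphosphate decarboxylase Mvd 0.0075, none of which passed. Msmo1, the methyl oxidase that follows Cyp51, ran from -0.239 in mouse 6 to 0.386 in mouse 1 with a mean of -0.0008 on 5 arrays.

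Among 6 tested regulators, 1 passed on each side, where 24.4% of all probes passed in total. Srebf2, the gene of SREBP-2, had log2 ratios of -0.584, -0.665, -0.105, -0.629, -0.119 and -0.064 in mice 1 to 6. Mice 1, 2 and 4 were far below the other 3, although every mouse was negative. Its mean was -0.36 ± 0.29 (SD, n = 6), 1.28-fold apart (limma, adjusted p = 0.0408), and it kept this side under no centring, scaling and quantile normalization. The call was lost in 4 of the 6 fits that leave out a mouse, those without mouse 1, 2, 4 or 5 (adjusted p = 0.0859, 0.11, 0.111 and 0.0505). The order of the mice differed from that of Cyp51 and Dhcr7: mouse 6, low for both enzymes, was the mouse nearest to 0 for Srebf2.

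Nr1h3, the sterol-sensing nuclear receptor LXR alpha, was at 0.22 ± 0.06 and ran from 0.128 to 0.299, positive in 6 of 6 mice (limma, adjusted p = 0.00891). Srebf1 had a mean of 0.07 (limma, adjusted p = 0.4), and mouse 1 was its lowest at -0.188. Insig2, the second Insig protein, had -0.09, and Mbtps1, the first protease that cleaves SREBPs, had 0.12 with all mice positive; neither passed. Rnf145, a sterol-responsive ubiquitin ligase, had -0.035, and 0.016 without mouse 3.

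Of the genes of uptake and intracellular transport, 1 of 8 tested passed, against 24.4% of all probes. Mylip, a ubiquitin ligase that limits lipoprotein uptake, had log2 ratios of 0.964, 0.786, 0.970, 0.868, 0.369 and 0.528 in mice 1 to 6. Every mouse was positive and mouse 3 was the highest, so its size did not fade on that array. Of all probes on 6 arrays, 16.0% were positive in every mouse. Its mean was 0.75 ± 0.25 (SD, n = 6), 1.68-fold apart (limma, adjusted p = 0.00383). The lipoprotein receptor Vldlr had a mean of 0.34 and Scarb1, the HDL receptor, one of 0.31, without passing (limma, adjusted p = 0.112 and 0.0636). Lipa, the lysosomal lipase that frees cholesterol from its esters, had -0.13 and was negative in 5 of 6 mice (limma, adjusted p = 0.0528), and passed without mouse 3 (adjusted p = 0.0313). Stard4, a sterol carrier, had the widest spread of the pathway, an SD of 0.70, with -0.938, -0.415, -0.051 and -0.683 in mice 1 to 4 and 0.693 and 0.716 in mice 5 and 6. The sterol transporters Npc2 and Npc1 had 0.082 and -0.078, and 0.042 and -0.11 without mouse 3. The Npc1 spot lies 18 numbers from that of Dck at -1.06.

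Of 5 tested genes of efflux and oxysterols, 1 passed, a share near the 24.4% of all probes. Ch25h, which makes the oxysterol that holds SREBPs at the endoplasmic reticulum and is induced by interferon, had log2 ratios of -1.283, -0.647, -0.120, -1.062, -0.764 and -1.090 in mice 1 to 6. All were negative and mouse 3 was nearest to 0. Its mean was -0.83 ± 0.42 (SD, n = 6), 1.77-fold apart and the lowest of the pathway (limma, adjusted p = 0.00938); without mouse 3 it was -0.97. The exporters Abca1 and Abcg1 had -0.16 and -0.14, the lipoprotein component Apoe 0.23 and the oxysterol hydroxylase Cyp39a1 0.052, none of which passed. Abcg1 was negative in every mouse, and its spot lies 6 numbers from that of Tgtp1 at -1.39.

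**Figure D2:**
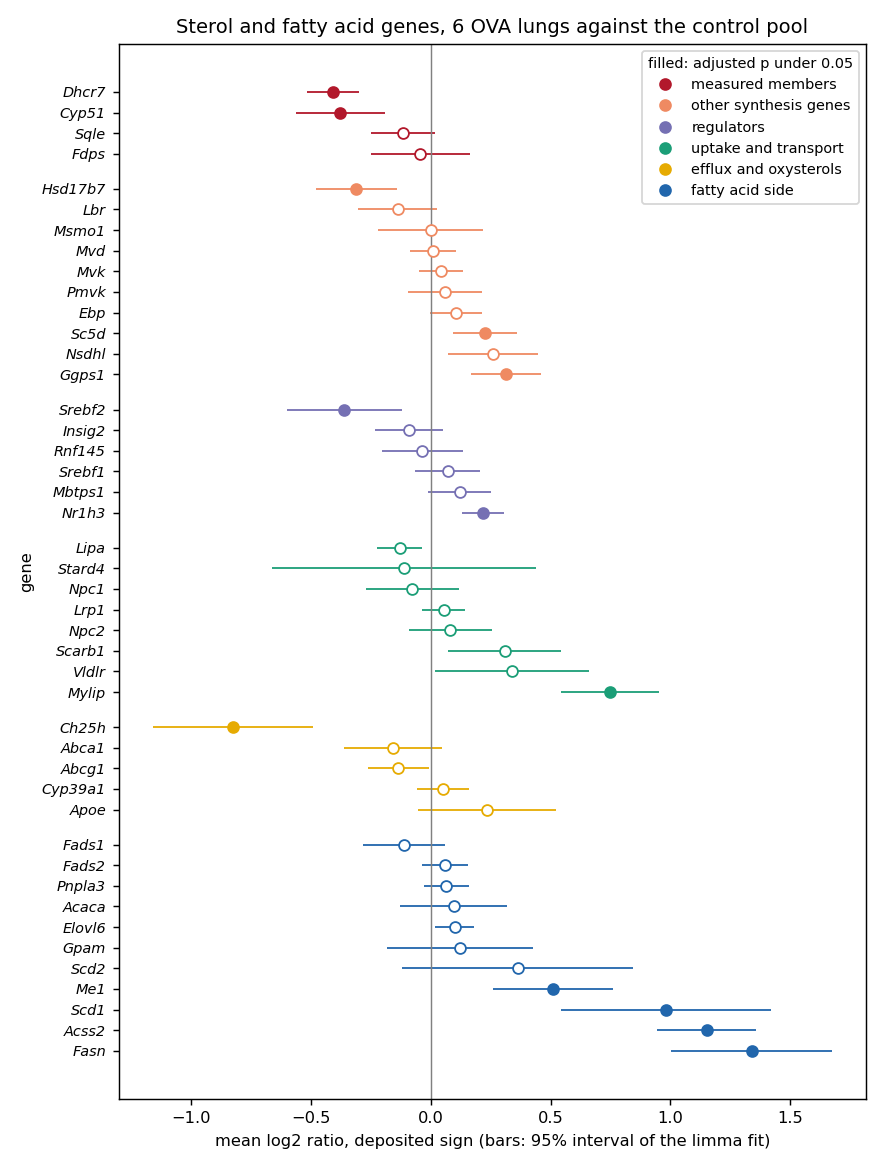
Mean log2 ratio (deposited sign, x axis) with the 95% interval of the limma fit for the 4 measured members and 40 other sterol and fatty acid genes (y axis), grouped by role; filled points have an adjusted p under 0.05. Cyp51 and Dhcr7 at -0.38 and -0.41 lie with Hsd17b7, Srebf2 and Ch25h on the negative side, and 8 other filled points lie on the positive side, led by Fasn at 1.34.

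The fatty acid genes of the SREBP network were on the side opposite to Cyp51 and Dhcr7 wherever they passed. Of 11 tested, 4 passed, all positive, where 12.0% of all probes passed on that side and 24.4% on either. Fasn, the fatty acid synthase, was at 1.34 ± 0.42 (SD, n = 6), 2.53-fold apart (limma, adjusted p = 0.00326), although its spot lies 6 numbers from that of the heart gene Myh6 at 1.44. Acss2, which makes acetyl-CoA for both fatty acids and sterols, was at 1.15 ± 0.25 (2.22-fold, adjusted p = 0.00163), with 1.434, 1.215, 1.279, 1.230, 0.718 and 1.036 in mice 1 to 6. The desaturase Scd1 was at 0.98 ± 0.55 and the NADPH-forming malic enzyme Me1 at 0.51 ± 0.31 (limma, adjusted p = 0.012 and 0.0157), and Me1 lost its call without mouse 4 (adjusted p = 0.0532). The named fatty acid genes that did not pass had smaller or uneven values. Scd2 had 0.36 with an SD of 0.61, the acyltransferase Gpam 0.12, and the desaturases Fads1 -0.11 and Fads2 0.060. The elongase Elovl6 had 0.099 with every mouse positive (limma, adjusted p = 0.0727). Pnpla3 had 0.064 and was positive on all 5 arrays with a value (limma, adjusted p = 0.266).

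**Figure D3:**
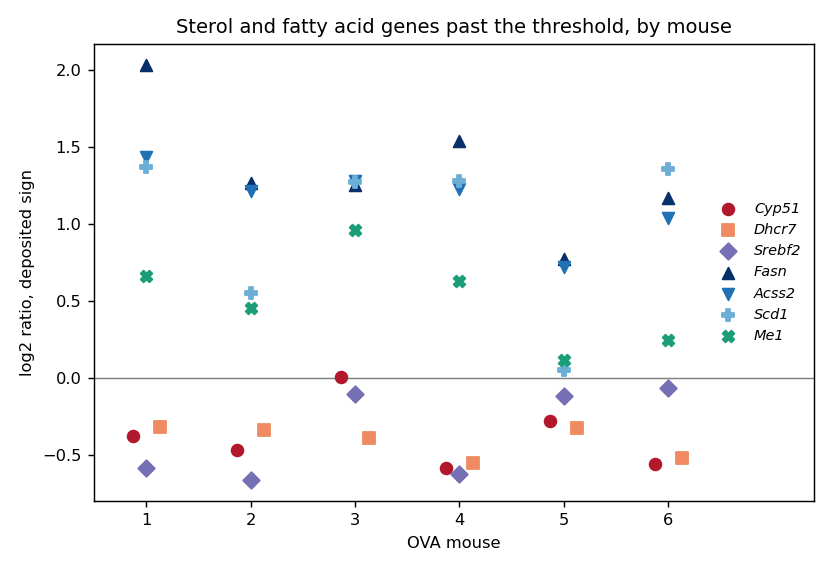
Log2 ratio (deposited sign, y axis) in each of 6 OVA mice (x axis) of Cyp51, Dhcr7 and Srebf2 and of the 4 fatty acid genes past the threshold; each symbol is 1 gene in 1 mouse. In every mouse Fasn, Acss2, Scd1 and Me1 lie above Cyp51, Dhcr7 and Srebf2, and in mouse 5 the lowest of them, Scd1 at 0.050, lies nearest to 0.

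Over the 40 other genes of the sterol and fatty acid network that could be tested, 11 passed, 3 negative and 8 positive, a share near the 24.4% of all probes that passed. Their median mean log2 ratio was 0.068. Without mouse 4, 7 passed, and 7 of the 11 genes passed in all 6 fits that leave out a mouse. The genes whose profile over the 6 mice was nearest to the mean of the 4 measured members, by root mean square difference on the log2 scale, were the autophagy gene Atg7 (0.045), Thrap3 (0.060), the protease inhibitor Serpinb2 (0.064), the microtubule end-binding Mapre1 (0.065) and Fxyd6 (0.072). These 5 were picked as the nearest of all genes measured on 6 arrays. The members themselves lay at 0.14 for Sqle, 0.17 for Cyp51, 0.20 for Dhcr7 and 0.24 for Fdps.

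Several cell type lists had ratios well away from 0 in the same mice. The lists were chosen with earlier results of these data known, so this is a description and not a finding. A gene counts as called where any of its probes passed. Over all probes, 24.4% passed on either side, 12.3% as negative and 12.0% as positive. Macrophage markers had 4 negative calls among 9 genes, led by Aif1 at -1.80 and the complement chain C1qa at -1.36, and their mean ran from -1.33 in mouse 2 to 0.12 in mouse 3. Cell cycle genes had 5 negative calls among 7, led by Cdk1 at -1.99 and Ube2c at -1.39, with a mean from -1.75 in mouse 1 to 0.013 in mouse 3. Adipocyte markers had 5 positive calls among 9, led by Adipoq at 2.30 and Cidea at 2.25, with a mean from 0.39 in mouse 3 to 1.20 in mouse 6. Heart muscle markers had 8 positive calls among 9, led by Cox8b at 1.77 and Myl4 at 1.60 (0.25 in mouse 3 to 1.87 in mouse 1), and club cell markers 7 among 8, led by Gsta3 at 2.13 and Bpifa1 at 1.62 (0.35 in mouse 3 to 1.99 in mouse 1). Markers of alveolar type 2 cells, which secrete surfactant, passed for 3 of 7 genes, 2 negative and 1 positive, with Sftpa1 at -0.61 and Sftpc at 0.60, and a mean between -0.37 in mouse 6 and 0.31 in mouse 1.

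The adipocyte, club cell, macrophage, heart muscle and cell cycle means were nearest to 0 in mouse 3, as was Cyp51, while Dhcr7 was at -0.390 there. Fasn, Acss2, Scd1 and Me1 lay on the same side as the adipocyte list in every mouse, and in mouse 3, where that list had its lowest mean, they were at 1.253, 1.279, 1.273 and 0.959. The adipocyte markers differed among themselves in mouse 3, with Adipoq at 0.417 and Cidea at 1.713. The part of any of these lists in the ratios of the sterol genes was not tested. A ratio does not give a level, so the arrays do not show how abundant the markers of lung tissue are in either channel.

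**Figure D4:**
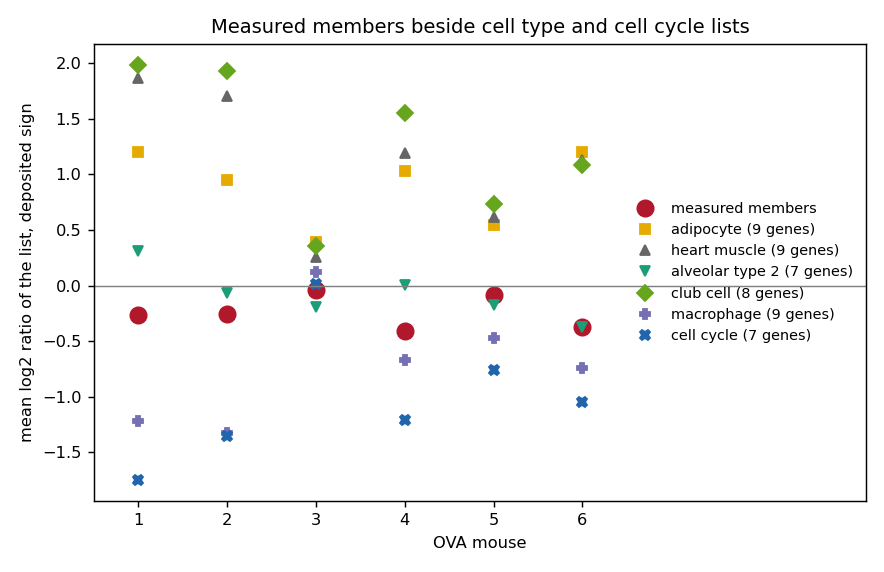
Mean log2 ratio (deposited sign, y axis) of the 4 measured members and of 6 marker lists in each of 6 OVA mice (x axis), with the number of tested genes of each list in the legend. The mean of the members stays between -0.41 and -0.040, while the macrophage and cell cycle lists lie on the same side in every mouse but mouse 3 (0.12 and 0.013) and the lists of club cells, heart muscle and adipocytes on the other side in all, all but the alveolar type 2 list smallest in size in mouse 3.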

How the data were processed

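The authors deposited 1 log2 ratio per spot and array in a table of 17280 rows; how they were scanned, corrected, normalized and filtered, and the base and direction, is not given in the sources used, and base 2 was assumed. Platform annotation gave 1 symbol to 14722 probes, of which 14445 were updated through RefSeq names (GRCm38.p6). Each array was centred on its median over probes measured on all arrays (deposited medians -0.012 to 0.008). Left out were 170 rows that repeat 10 sequences 17 times (median SD within an array 0.091 to 0.14) and 4 plant rows. Probes on at least 4 of 6 arrays, 11629 in all, were compared with 0 by limma 3.58.1 under R 4.3.3 (intercept-only lmFit, eBayes, two-sided) and adjusted by Benjamini-Hochberg at 0.05; 2832 passed. The fit was run on simulated data with independent noise per mouse. That simulation held no error of the shared pool or dye, so it says nothing on these. Figures used matplotlib 3.10.9 in Python 3.11.15.

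Members and lists were chosen with earlier results of these data known. Named were all members, every other pathway gene past the threshold, up to 6 per class of the rest by arrays and size, the 5 nearest profiles and 2 genes per marker list; Clca1 and Muc5ac were added for the direction. Alternatives were other centring, scaling, array minimum, weights, variance, probe summary, threshold and neighbour settings, an exact sign-flip test and leaving out each mouse. Promoters were searched in 250 bases.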

Additional observations from a re-analysis of the deposited data

How the results depend on the processing

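With the exact sign-flip test judged by its unadjusted p of 0.03125, Dhcr7 kept its call in each alternative, also at a threshold of 0.01. It kept its side in all 19 alternatives, with means from -0.44 to -0.38. Cyp51 kept its side in all of them but lost its call with unmoderated variances (-0.38, adjusted p = 0.0548), at a threshold of 0.01 (-0.38, adjusted p = 0.0157) and in the exact sign-flip permutation test (-0.38, p = 0.0625); leaving out each mouse gave -0.45 to -0.34. Sqle and Fdps had no call in any alternative run; Sqle could not be fitted where spots near a stronger spot were left out. Fdps changed side without mouse 1 (0.0057), with a range of -0.13 to 0.0057 over the mice left out; it lies near 0 throughout. The members past the threshold were 2, and 1 with unmoderated variances and 1 at a threshold of 0.01, with 1 to 2 over the mice left out. The other pathway genes past it were 11, against 7 with unmoderated variances, 5 at 0.01 and 7 to 12 over the mice left out. All probes past it were 2832, against 1444 with unmoderated variances, 746 at 0.01 and 1357 to 2991 over the mice left out; the lowest were without mice 4 (1357), 2 (1380) and 6 (1728). No paired analysis was possible because the labels give 1 group of mice and 1 shared pool. With 6 mice an exact sign-flip test cannot go below 0.03125. The number of arrays limits what differences of this size can show.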
